A study of Saccharomyces cerevisiae with 6 samples.

Results

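A homopolymer run is a stretch of 1 repeated base. All stretches of 4 or more identical bases were taken from the transcribed ribosomal DNA (rDNA) of budding yeast, reading U and T as the same letter. There were 108 such runs, and they held 485 of the 6858 positions (7.07%). The signal of RNA polymerase I (Pol I) at each run position was set against the positions outside runs that have the same base and lie in the same region. The signal came from native elongating transcript sequencing (NET-seq), which sequences the 3' ends of RNA that is purified with the polymerase and so maps where the polymerase stands. Cells lacking PAF1 (paf1 deletion), cells lacking CDC73 (cdc73 deletion) and wild-type (WT) cells were compared, with 2 libraries of each genotype. The strain background is not given in the sources used here. Nor do they state that the libraries of a genotype came from separate cultures, so p-values measure the spread between these libraries, which may be technical. The deposited tables cover only the rDNA, so the absence of either deleted gene could not be checked in them.

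Pol I makes the 35S precursor, which holds the 18S, 5.8S and 25S rRNAs. Around and between them lie spacers that are cut out. The external transcribed spacers (5' ETS and 3' ETS) flank the genes, and the internal transcribed spacers (ITS1 and ITS2) stand on either side of 5.8S. An elongating polymerase holds a short RNA-DNA hybrid whose strength depends on its bases. A stretch of G in the RNA pairs strongly with C in the template, while a stretch of U pairs weakly with A, and long stretches of A or U are known as places where polymerases can slip or pause. Paf1 and Cdc73 are subunits of the Paf1 complex, an elongation factor that travels with RNA polymerase II and has also been found on the rDNA.

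The runs on which the results turn are printed here as RNA, 5' to 3', from the bases in the deposited tables (build R64, minus strand of chromosome XII). The run is in capitals and 10 bases on each side are in lower case. Positions count from the first transcribed base. The first 4 are runs of G on which signal differed from base to base.
G run 434 to 437, 5' ETS, chrXII:467123-467146: gugaaacaccGGGGuaucuguuug
G run 1062 to 1065, 18S, chrXII:466495-466518: aacggguaacGGGGaauaaggguu
G run 1898 to 1901, 18S, chrXII:465659-465682: gacucaacacGGGGaaacucacca
G run 5909 to 5914, 25S, chrXII:461646-461671: gauguccuaaGGGGGGcucauggaga
The next 3 are runs of A from the spacers and both large genes. The first of them is the longest run in the transcribed rDNA.
A run 636 to 646, 5' ETS, chrXII:466914-466944: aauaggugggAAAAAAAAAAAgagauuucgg
A run 1452 to 1457, 18S, chrXII:466103-466128: uuuuacuuugAAAAAAuuagaguguu
A run 5159 to 5162, 25S, chrXII:462398-462421: ggaagucggcAAAAuagauccgua
The last 5 are runs of U and C in which single bases differed between genotypes.
U run 218 to 221, 5' ETS, chrXII:467339-467362: aguguguuucUUUUgcguuuaacc
U run 523 to 527, 5' ETS, chrXII:467033-467057: guguaaaagcUUUUUgaacagagag
U run 1658 to 1661, 18S, chrXII:465899-465922: gccaaggacgUUUUcauuaaucaa
U run 1754 to 1760, 18S, chrXII:465800-465826: ucggguggugUUUUUUUaaugacccac
C run 5958 to 5962, 25S, chrXII:461598-461622: aggguaaaagCCCCCuugauuuuga

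Runs of U were the most frequent, with 46 runs and 211 positions. Runs of G numbered 30 with 128 positions, runs of A 29 with 133 positions, and runs of C only 3 with 13 positions. Most were as short as the definition allows: 31 of the U runs, 24 of the G runs, 20 of the A runs and 2 of the C runs had 4 bases. Beyond 6 bases there were 3 runs of 7 U, 1 run of 8 U and 1 run of 11 A. Runs took up 11.9% of the spacers and 5.72% of the rRNA genes. ITS1 was the richest region, with 19.9% of its positions in runs, 49 of them U and 19 A. The 25S gene held 49 runs, of which 17 were of G. Runs of G were followed by A in 13 cases, by C in 13 and by U in 4.

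**Figure D1:**
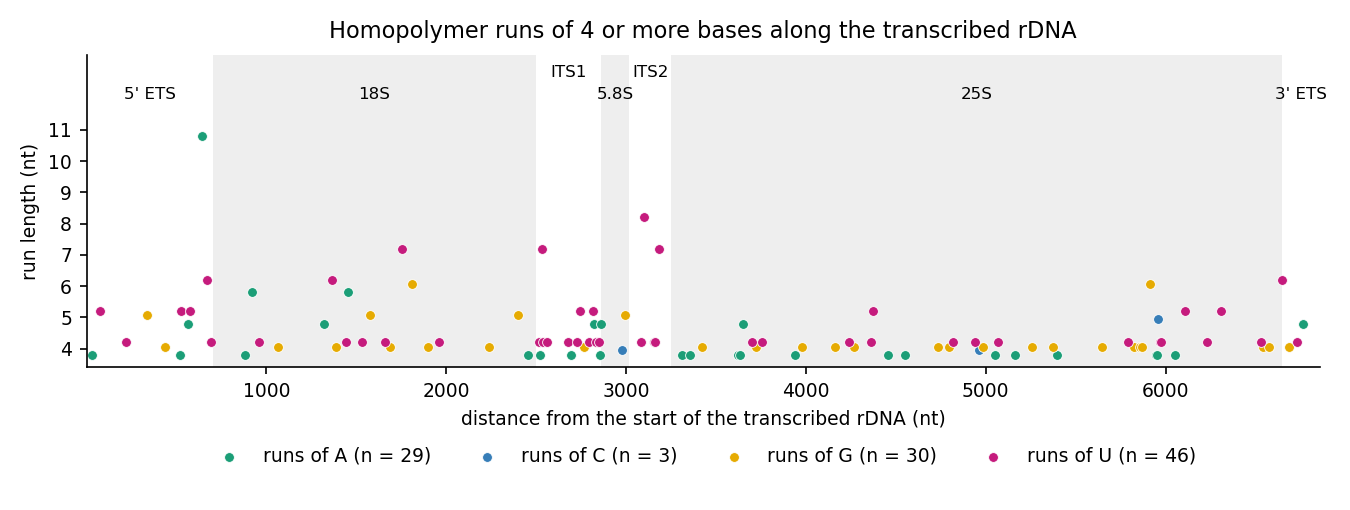
Each point is 1 of the 108 homopolymer runs, placed by the distance of its middle from the start of the transcribed rDNA (x, nt) and by its length (y, nt), with the rRNA genes shaded and the spacers white. Points of different bases are offset slightly in height, runs of U crowd into ITS1, and the run of 11 A in the 5' ETS is the longest.

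The deposited signal is a number of reads scaled so that each library sums to 1000000 over nearly the whole transcribed rDNA. There were 29671814 and 14203939.5 reads in paf1 deletion cells, 18428847.5 and 14965806.5 in cdc73 deletion cells, and 480708 and 226202 in WT. These totals take the smallest value of a library as 1 read. The median run position had 2370 and 1042 reads in paf1 deletion cells, 1267 and 981 in cdc73 deletion cells, and 33 and 16 in WT. The shallowest deletion library was 29.5 times as deep as the deepest WT library, so a WT value at a dim run position rests on few reads. The scaled signal is relative within a library, and the total amount of Pol I on the rDNA was not measured. Lower signal at a position therefore cannot be told apart from higher signal elsewhere. Mature rRNA carried along with the polymerase is not separated from nascent RNA in these values. Of the 10 positions listed at 0 in all 6 libraries, 9 lie in 3 groups at the mature 3' ends of 18S, 5.8S and 25S. They include the first 3 positions of the run of 6 U that crosses the 25S end (6647 to 6652).

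Taken as a whole, runs held about the share of signal that their number and bases would give. They took 6.77% ± 0.0446 of the signal in the paf1 deletion, 6.17% ± 0.0157 in the cdc73 deletion and 6.53% ± 0.0931 in WT (SD, n = 2 each). Relative occupancy is the summed signal of a set of positions, divided by the sum they would have if each had the mean signal of the positions outside runs with its base and region. Over all 485 positions it was 1.13 and 1.14 in paf1 deletion cells, 1.04 and 1.03 in cdc73 deletion cells, and 1.06 and 1.04 in WT. That near-even total hid a strong dependence on the base.

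Runs of G carried more signal than G elsewhere in all 6 libraries. Their relative occupancy was 1.79 and 1.88 in paf1 deletion cells, 1.67 and 1.602 in cdc73 deletion cells, and 1.81 and 1.66 in WT. The WT values overlapped those of both deletions, while the deletions did not overlap each other, with a log2 difference of 0.16 between them. Of the 30 runs of G, 16 were above 1 in every library and 6 were below 1 in every library. Of 66 stretches of 3 G, which are not counted as runs, 22 were above 1 and 12 below 1 in every library. The mean over libraries reached 5.35 in the highest run of G and 0.338 in the lowest, so the enrichment was not shared by all.

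Runs of U carried less signal than U elsewhere, at 0.830 and 0.800 in paf1 deletion cells, 0.705 and 0.739 in cdc73 deletion cells, and 0.890 and 0.886 in WT. Only 4 of the 46 runs of U were above 1 in every library, while 26 were below 1 in every library. Stretches of 3 U, which are not counted as runs, split much alike: of 96, 9 were above 1 and 53 below 1 in every library. Of the 1709 U positions outside runs, 13.0% were above 1 and 50.1% below 1 in all 6 libraries. These shares are of positions, including those in stretches of 3 U, and not of means over a stretch. Runs of A stood near A elsewhere in the deletions and below it in WT. They were at 0.988 and 0.968 in paf1 deletion cells, 1.04 and 1.04 in cdc73 deletion cells, and 0.639 and 0.700 in WT. The difference from WT, on the log2 scale of the genotype means, was 0.55 with PAF1 deleted and 0.63 with CDC73 deleted. With medians of log2 values in place of means, these differences were 0.19 and 0.33. The WT libraries did not overlap either deletion in this measure. Of the 29 runs of A, 4 were above 1 in every library and 14 were below 1 in every library. Of 89 stretches of 3 A, 15 were above 1 and 49 below 1 in every library. Of the 1717 A positions outside runs, again counted position by position, 13.0% were above 1 and 48.9% below 1 in all 6 libraries.

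The 3 runs of C were low in the deletions, at 0.409 and 0.385 in the paf1 deletion and 0.377 and 0.384 in the cdc73 deletion, and at 0.941 and 0.979 in WT. That gap rested on a single run, the 5 C at 5958 to 5962. Without it the runs of C stood at 0.374 and 0.354 in paf1 deletion cells, 0.309 and 0.330 in cdc73 deletion cells, and 0.447 and 0.439 in WT. Runs of C were thus low in all genotypes once that run was left out, a choice made after its values were seen.

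Runs of G in the spacers reached 3.63 and 4.43 in paf1 deletion cells, 2.75 and 2.73 in cdc73 deletion cells, and 1.94 and 2.05 in WT. They are only 4 runs with 17 positions. Without the run at 434 to 437 they stood at 2.36 and 2.87 in paf1 deletion cells, 2.26 and 2.35 in cdc73 deletion cells, and 1.12 and 1.30 in WT. In the rRNA genes the 26 runs of G stood at 1.70 and 1.74 in paf1 deletion cells, 1.63 and 1.55 in cdc73 deletion cells, and 1.80 and 1.63 in WT.

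Runs of A in the spacers were at 0.565 and 0.466 in paf1 deletion cells, 1.13 and 1.23 in cdc73 deletion cells, and 0.278 and 0.269 in WT. Pooled over the spacers, both deletions were above WT, and the cdc73 deletion was the highest. The spacers differed in this. The 4 runs of A in the 5' ETS stood at 0.712 and 0.586 in paf1 deletion cells, 1.62 and 1.74 in cdc73 deletion cells, and 0.284 and 0.280 in WT. The 5 runs of A in ITS1 stood at 0.235 and 0.188 in paf1 deletion cells, 0.399 and 0.435 in cdc73 deletion cells, and 0.251 and 0.223 in WT, so there the paf1 deletion overlapped WT. The single run of A in the 3' ETS was lower in the paf1 deletion, at 0.0986 and 0.133, against 0.260 and 0.265 in WT, while the cdc73 deletion had 0.487 and 0.399. The comparison positions moved as well. A outside runs in the 5' ETS had a mean signal of 90.0 and 90.8 in paf1 deletion cells, 26.0 and 26.6 in cdc73 deletion cells, and 223 and 189 in WT. The run of 11 A shows what this does to the ratio. Its mean signal was 88.9 and 73.7 in paf1 deletion cells, 42.6 and 49.9 in cdc73 deletion cells, and 68.7 and 68.8 in WT. Its relative occupancy was nonetheless highest in the cdc73 deletion, at 1.64 and 1.88, against 0.308 and 0.364 in WT. In the 5' ETS, runs of A thus kept more of their signal in the cdc73 deletion than the A around them did. Without the run of 5 A at 562 to 566, whose first base rose in the cdc73 deletion, runs of A in the spacers still stood at 0.833 and 0.894 in the cdc73 deletion, against 0.301 and 0.281 in WT.

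Runs of U pooled over the spacers were lower in both deletions, at 0.739 and 0.670 in paf1 deletion cells, 0.484 and 0.484 in cdc73 deletion cells, and 1.09 and 1.02 in WT. Most of this came from the 5' ETS, where its 6 runs of U stood at 0.377 and 0.298 in paf1 deletion cells, 0.318 and 0.303 in cdc73 deletion cells, and 1.40 and 1.32 in WT. Without the run of 5 U at 523 to 527, the brightest of them in WT, they stood at 0.345 and 0.231 in paf1 deletion cells, 0.280 and 0.281 in cdc73 deletion cells, and 0.807 and 1.04 in WT. The 11 runs of U in ITS1 were below 1 in every genotype, at 0.733 and 0.646 in paf1 deletion cells, 0.482 and 0.495 in cdc73 deletion cells, and 0.548 and 0.550 in WT. The paf1 deletion was thus above WT in ITS1 and the cdc73 deletion below it. The 5 runs of U in ITS2 were higher in both deletions, at 0.585 and 0.623 in paf1 deletion cells, 0.396 and 0.372 in cdc73 deletion cells, and 0.311 and 0.294 in WT. The 2 runs of U in the 3' ETS were lower in both deletions, at 2.37 and 2.18 in paf1 deletion cells, 2.32 and 2.42 in cdc73 deletion cells, and 5.20 and 4.96 in WT. Among them is the 3' ETS part of the 6 U at 6647 to 6652, which cross the mature 25S end. The fourth base of that run, described further on, supplied most of the WT signal of these 2 runs.

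Within the rRNA genes the order of the genotypes for pooled runs of G turned between 18S and 25S. The 8 runs of G in 18S stood at 1.80 and 1.85 in paf1 deletion cells, 1.82 and 1.81 in cdc73 deletion cells, and 1.29 and 1.25 in WT. The 17 runs of G in 25S stood at 1.76 and 1.81 in paf1 deletion cells, 1.62 and 1.51 in cdc73 deletion cells, and 2.14 and 1.90 in WT. Pooled in this way, WT was the lowest genotype in 18S and the highest in 25S, without overlap with either deletion in both genes. In 18S, much of the gap between WT and the paf1 deletion came from position 1063, whose values are given further on. In 25S, the gap between WT and the paf1 deletion rested on the run of 6 G at 5909 to 5914, whose values are given further on. The 20 runs of A in the genes stood at 1.06 and 1.05 in paf1 deletion cells, 1.03 and 1.02 in cdc73 deletion cells, and 0.790 and 0.855 in WT. In the cdc73 deletion this gap came from 25S. The 14 runs of A in 25S stood at 1.16 and 1.11 in paf1 deletion cells, 1.20 and 1.20 in cdc73 deletion cells, and 0.834 and 0.873 in WT. The 5 runs of A in 18S stood at 0.995 and 1.05 (paf1 deletion), 0.701 and 0.650 (cdc73 deletion) and 0.751 and 0.880 (WT). The cdc73 deletion was thus the lowest genotype there. Its gap to WT rested on the run of 6 A at 917 to 922, described further on. Runs of U pooled over the genes overlapped between each deletion and WT. They stood at 0.852 and 0.830 (paf1 deletion), 0.770 and 0.819 (cdc73 deletion) and 0.815 and 0.834 (WT). The pooled values of 18S and 25S differed in direction. Pooled, the 7 runs of U in 18S were higher in both deletions. They stood at 0.918 and 0.841 (paf1 deletion), 0.940 and 0.999 (cdc73 deletion) and 0.689 and 0.675 (WT). This excess rested on the run of 7 U at 1754 to 1760. Its relative occupancy was 1.88 and 1.71 (paf1 deletion), 2.63 and 2.87 (cdc73 deletion) and 0.406 and 0.409 (WT). Pooled, the 16 runs of U in 25S were lower in both deletions. Their values were 0.821 and 0.824 (paf1 deletion), 0.701 and 0.749 (cdc73 deletion) and 0.875 and 0.912 (WT). The gap between the paf1 deletion and WT rested on the run of 4 U at 4937 to 4940. Mean signal in that run was 79.2 and 75.2 (paf1 deletion), 118 and 125 (cdc73 deletion) and 237 and 287 (WT). Without that run the cdc73 deletion was still below WT in 25S. In the short 5.8S gene the single runs of A, C and G were all under 0.5 in every library.

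**Figure D2:**
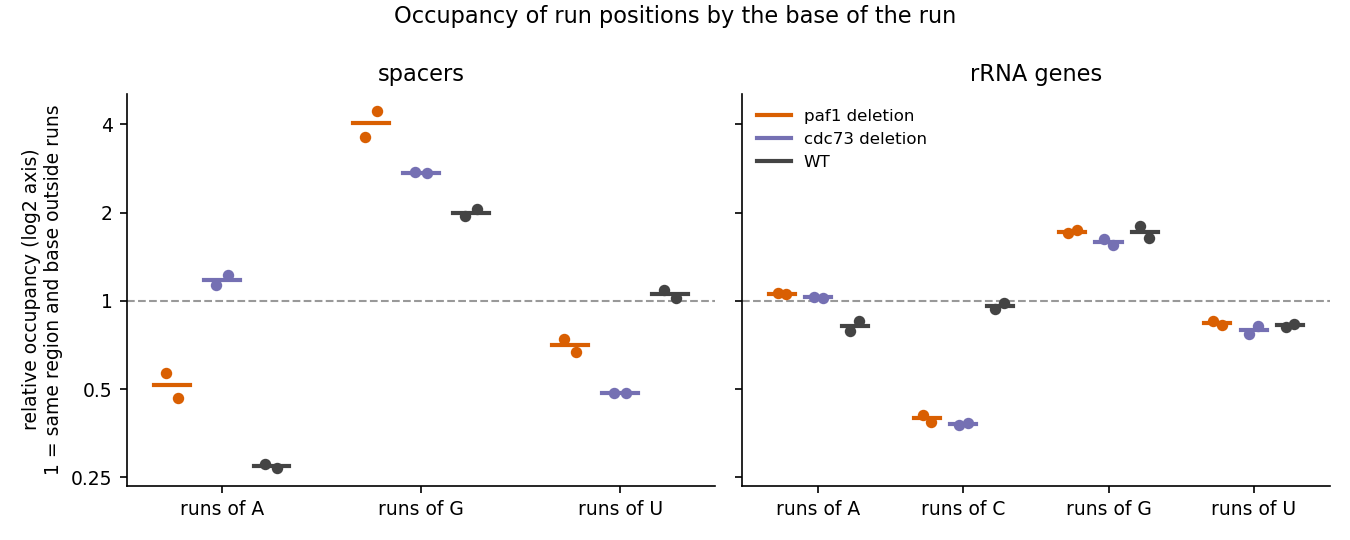
Relative occupancy (y, log2 axis) of the positions in runs of each base, in the spacers and in the rRNA genes, where 1 means the same mean signal as positions of that region and base outside runs. Each point is a library and each bar the mean of 2; runs of G lie above 1 in every library in both panels, and the genotypes are further apart in the spacers than in the genes for runs of A, G and U.

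The signal was not even along a run. In runs of G the last base was higher than the first. At the first G the relative occupancy was 0.850 and 0.815 in paf1 deletion cells and 0.749 and 0.760 in cdc73 deletion cells. It was 0.749 and 0.732 in WT, so pooled over all regions the first G showed no excess. In the 4 runs of the spacers it was above 1 in both deletions, at 1.71 and 1.49 (paf1) and 1.43 and 1.52 (cdc73). WT stood at 0.683 and 0.649 there. In the rRNA genes the first G was between 0.720 and 0.806 in every library. The last G had 2.04 and 2.14 in paf1 deletion cells, 2.36 and 2.18 in cdc73 deletion cells, and 3.08 and 2.60 in WT. The base just after the run was as high, at 1.99 and 2.00 in paf1 deletion cells, 2.34 and 2.35 in cdc73 deletion cells, and 3.24 and 2.72 in WT, each set against its own base. The base after that stood between 1.40 and 1.69 in all libraries.

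This held in most runs of G and not only in a few. The last G exceeded the first in all 6 libraries in 24 of 30 runs and in no library in 1 run. The last G was above 1 in all 6 libraries in 16 of 30 runs (53.3%) and below 1 in all 6 in 3 runs. Of the 1679 G outside runs, 12.4% were above 1 and 45.1% below 1 in all 6 libraries. Leaving out the run at 434 to 437, which has the highest last base, gave 1.82 and 1.81 in paf1 deletion cells, 2.31 and 2.12 in cdc73 deletion cells, and 2.89 and 2.43 in WT. Among the 24 runs of exactly 4 G, the last base was the brightest in all 6 libraries in 7 runs, and the first base in none.

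The second G was higher in the paf1 deletion than in WT. At the second G the relative occupancy was 2.09 and 2.15 in paf1 deletion cells, 1.40 and 1.39 in cdc73 deletion cells, and 1.25 and 1.23 in WT. On the log2 scale this was 0.77 for the paf1 deletion over WT and 0.17 for the cdc73 deletion over WT. A large part of the paf1 deletion's value came from position 1063. Without its run the second G stood at 1.71 and 1.80 in paf1 deletion cells, 1.41 and 1.39 in cdc73 deletion cells, and 1.24 and 1.22 in WT, and the paf1 deletion was 0.51 over WT. The last G ran in the opposite order, with a log2 difference of -0.44 between the paf1 deletion and WT, though the WT mean of 2.84 had an SD of 0.340. Over all runs of G the paf1 deletion was thus nearly level from the second G to the fourth G, while WT went up at each base as far as the fourth G.

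Runs of A had the reverse shape. The first A had a relative occupancy of 1.596 and 1.594 in paf1 deletion cells, 1.85 and 1.80 in cdc73 deletion cells, and 1.25 and 1.47 in WT. The median over runs was 1.30 in paf1 deletion cells, 0.876 in cdc73 deletion cells, and 0.716 in WT, and 7 of 29 first bases were above 1 in all 6 libraries and 11 below. The last A had 0.542 and 0.493 in paf1 deletion cells, 0.502 and 0.517 in cdc73 deletion cells, and 0.449 and 0.395 in WT, and the base after it was as low, between 0.431 and 0.530. The last A exceeded the first in all 6 libraries in 2 of 29 runs, and in no library in 18. The last A was below 1 in all 6 libraries in 21 of 29 runs (72.4%) and above 1 in all 6 in none. Of A outside runs, 48.9% were below 1 and 13.0% above 1 in all 6 libraries.

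Pooled over all regions, the genotypes separated most in the middle of runs of A. The second A stood at 1.07 and 1.03 in paf1 deletion cells, 1.06 and 1.07 in cdc73 deletion cells, and 0.491 and 0.520 in WT, a difference of 1.05 and 1.07 on the log2 scale for the paf1 deletion and the cdc73 deletion over WT. At the last A the same differences were 0.29 and 0.27. In these pooled means the fall thus came later in the run in the deletions. In the rRNA genes the cdc73 deletion over WT was 0.16 at the first A, 0.53 at inner bases and 0.065 at the last. In the spacers these differences were 1.86, 2.31 and 1.86, so there the cdc73 deletion stayed above WT to the end of the run. The base just before runs of A was also high, at 2.16 and 1.75 in paf1 deletion cells, 1.76 and 1.80 in cdc73 deletion cells, and 1.26 and 1.37 in WT. That mean rested on few bright positions. Its median over runs was 1.03 in the paf1 deletion, 1.01 in the cdc73 deletion and 0.687 in WT, and 9 of 28 such bases were above 1 in all 6 libraries and 9 below.

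Runs of U had a shallow trough. The first U stood at 1.06 and 1.03 in paf1 deletion cells, 0.813 and 0.847 in cdc73 deletion cells, and 1.07 and 1.12 in WT, and the third U at 0.603 and 0.579 in paf1 deletion cells, 0.507 and 0.543 in cdc73 deletion cells, and 0.598 and 0.534 in WT. The last U stood at 0.815 and 0.800 in paf1 deletion cells, 0.836 and 0.879 in cdc73 deletion cells, and 1.10 and 1.11 in WT, so it was higher again, most of all in WT. No common order held across runs of U: the last exceeded the first in all 6 libraries in 12 of 46 runs and in no library in 13. The last U was above 1 in all 6 libraries in 3 of 46 runs and below in 21 (45.7%), close to the 50.1% of U outside runs that were below 1.

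**Figure D3:**
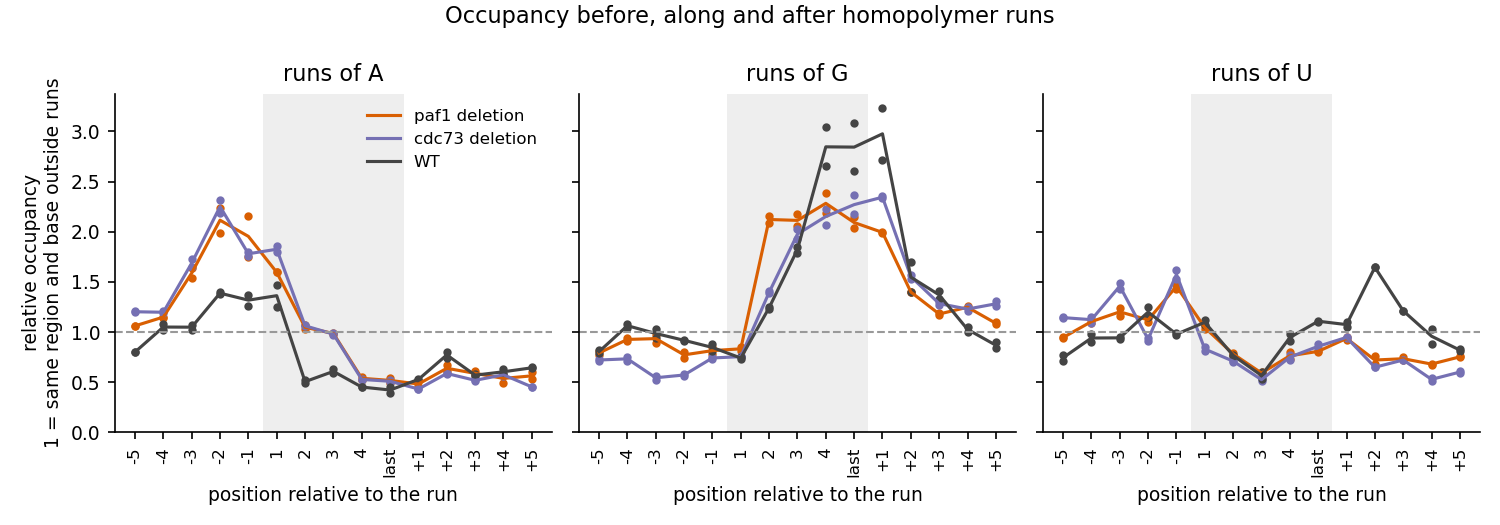
Relative occupancy (y, 1 is the mean of the same region and base outside runs) at the 5 positions before, the first 4 and the last position within, and the 5 positions after runs of A (n = 29), G (n = 30) and U (n = 46). Points are libraries and lines genotype means; the shaded part is the run, where the signal climbs along G, falls along A and dips along U.

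Run length mattered for G well below the threshold used to define a run. Here every maximal stretch was set against all positions of its region and base. A lone G stood at 0.816 and 0.776 in paf1 deletion cells, 0.785 and 0.804 in cdc73 deletion cells, and 0.757 and 0.770 in WT. Stretches of 2 G were at 1.03 and 1.07 in paf1 deletion cells, 1.08 and 1.08 in cdc73 deletion cells, and 0.993 and 1.02 in WT. At the edge of the definition, stretches of 3 G, which are not counted as runs, were at 1.30 and 1.32 in paf1 deletion cells, 1.34 and 1.31 in cdc73 deletion cells, and 1.66 and 1.61 in WT. Runs of 4 G, just inside, were at 1.70 and 1.75 in paf1 deletion cells, 1.52 and 1.45 in cdc73 deletion cells, and 1.67 and 1.53 in WT. Occupancy thus went up from 1 to 3 bases in every library. From 3 to 4 bases it went up in the deletions and not in WT. Only 4 runs of 5 G and 2 runs of 6 G exist, and their values went in different directions by genotype.

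Stretches of 3 A, just outside the definition, stood at 0.960 and 0.966 in paf1 deletion cells, 1.02 and 1.05 in cdc73 deletion cells, and 0.739 and 0.761 in WT. Runs of 4 A, just inside, stood at 1.06 and 1.02 in paf1 deletion cells, 1.15 and 1.15 in cdc73 deletion cells, and 0.722 and 0.743 in WT. The gap between deletions and WT was therefore present at 3 A already, while a lone A was at 1.11 and 1.09 in paf1 deletion cells, 1.06 and 1.05 in cdc73 deletion cells, and 1.23 and 1.22 in WT. Stretches of 3 U stood at 0.911 and 0.892 in paf1 deletion cells, 0.738 and 0.735 in cdc73 deletion cells, and 0.837 and 0.883 in WT. Runs of 4 U stood at 0.764 and 0.744 in paf1 deletion cells, 0.651 and 0.671 in cdc73 deletion cells, and 0.923 and 0.947 in WT. In the 7 runs of 6 or more U the order of genotypes turned, with 1.11 and 1.01 in paf1 deletion cells, 1.12 and 1.20 in cdc73 deletion cells, and 0.691 and 0.726 in WT. That turn rested on the run at 1754 to 1760, described further on, the brightest of these in both deletions. Its mean signal was 286 and 260 (paf1 deletion), 427 and 449 (cdc73 deletion) and 59.5 and 62.0 (WT).

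**Figure D4:**
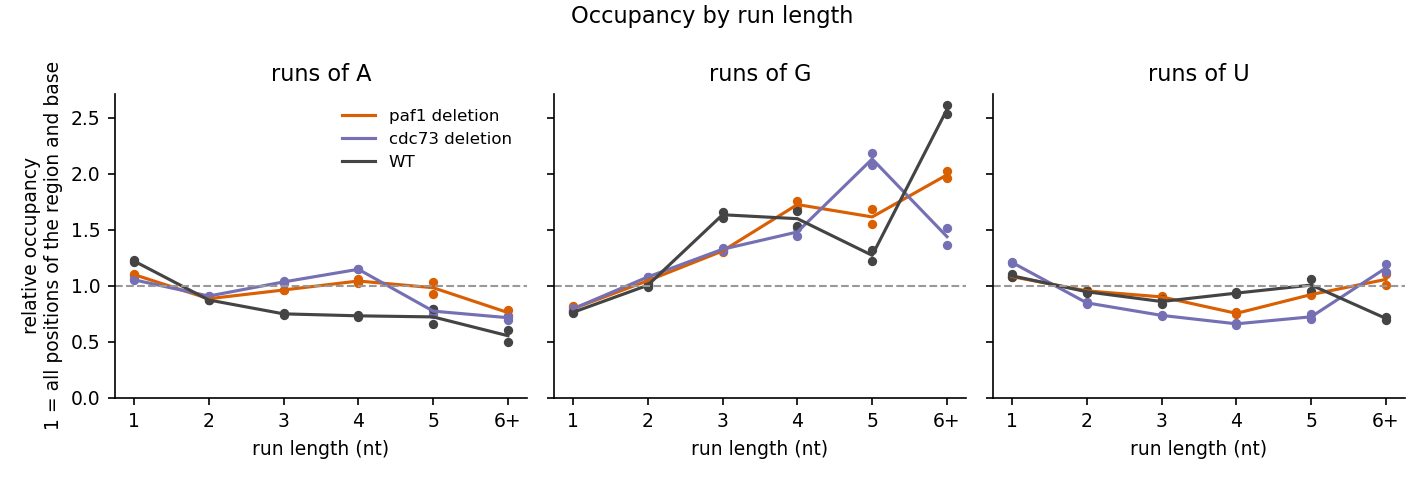
Relative occupancy (y, 1 is the mean of all positions of the same region and base) of stretches of 1, 2, 3, 4, 5 and 6 or more A, G or U (x, nt). Points are libraries and lines genotype means; G climbs from 1 to 3 bases in all libraries, and the WT mean lies below both deletion means for stretches of 3 or more A. The groups of 5 and of 6 or more hold between 2 and 8 runs each.

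Single positions were tested with limma on log2(signal + pseudocount) over all positions of the rDNA, and called at a Benjamini-Hochberg adjusted p under 0.05. The pseudocounts of 48.1 (paf1 deletion over WT), 44.3 (cdc73 deletion over WT) and 47.4 (paf1 over cdc73 deletion) understate changes at dim positions. Of the 485 run positions 482 passed the filter on low values. Against WT, the paf1 deletion had 134 higher and 94 lower run positions, which is 27.8% and 19.5% of them. The background over all 6839 tested positions was 29.6% higher and 19.6% lower. The median change was 0.05 at run positions and 0.09 at all positions on the log2 scale. The cdc73 deletion had 123 higher and 135 lower run positions against WT, or 25.5% and 28.0%, beside a background of 30.0% and 29.4%, with a median of -0.06 at run positions. Between the deletions, 171 run positions were higher and 100 lower in the paf1 deletion, or 35.5% and 20.7%, beside 34.4% and 20.6% of the 6846 positions tested. With all 6 libraries in 1 fit, 109 were higher. Changes were thus about as frequent inside runs as elsewhere in every comparison, and none of these shares is a result about runs.

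The scaling bears on the split. Scaling libraries to equal medians moved the median change of all positions by 0.101 when the paf1 deletion was set against WT. It gave 107 higher and 109 lower run positions there, and 129 higher and 129 lower between the deletions. The cdc73 deletion then had 121 higher and 135 lower run positions against WT.

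By base, the shares are read against the same base outside runs. When the paf1 deletion was set against WT, runs of A had 52 positions higher and 17 lower of 133 (39.1% and 12.8%), beside 37.1% and 18.4% of A outside runs. Between the deletions, runs of A had 72 higher and 18 lower (54.1% and 13.5%), beside 52.2% and 7.29% of A outside runs. Runs of G in the cdc73 deletion against WT had 26 higher and 41 lower of 128 (20.3% and 32.0%), beside 28.1% and 29.1% of G outside runs. Runs of U in the same comparison had 59 higher and 56 lower of 208 tested (28.4% and 26.9%), beside 36.2% and 21.8% of U outside runs. Of the 13 positions in runs of C, 2 were higher and 7 lower in the paf1 deletion than in WT, and 2 were higher and 9 lower in the cdc73 deletion than in WT. Of C outside runs, 25.1% were higher and 24.3% lower in the paf1 deletion than in WT, and 31.0% and 30.0% in the cdc73 deletion. Runs of A in the spacers differed more from A outside runs. In the cdc73 deletion against WT, 5 of 48 such run positions were higher and 11 lower (22.9%), beside 3.21% higher and 65.5% lower among A outside runs.

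With the paf1 deletion set against WT, every position was higher in 7 of the 108 runs and every position lower in 6, while 10 runs held positions called in both directions. With the cdc73 deletion set against WT the counts were 10, 7 and 17. Between the deletions they were 11, 5 and 25. Stretches outside runs were not counted in this way, so these numbers are no result about runs. The named positions that follow are those with the 8 largest rises and the 8 largest falls of each comparison. The comparisons of the deletions with WT share the WT libraries, so their values are given side by side and are not independent.

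The run of 7 U at 1754 to 1760 in 18S was raised along its whole length in both deletions. Its first U had a signal of 549 and 465 in the paf1 deletion and 914 and 947 in the cdc73 deletion, against 68.7 and 88.5 in WT. The change was 2.13 ± 0.151 (log2, SE, limma adjusted p = 7.77e-05) for the paf1 deletion and 2.99 ± 0.123 (adjusted p = 0.000111) for the cdc73 deletion. The second U had 527 and 452 in the paf1 deletion and 957 and 1019 in the cdc73 deletion, against 87.5 and 84.1 in WT. All 6 deletion and WT values at these positions separate by genotype, with WT lowest and the cdc73 deletion highest. The signal then dropped along the run in the deletions, to 206 and 221 in the paf1 deletion and 259 and 264 in the cdc73 deletion at the last U, against 110 and 88.5 in WT.

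The run of 4 A at 5159 to 5162 in 25S showed the same order of genotypes. The third A had 722 and 628 in the paf1 deletion and 874 and 996 in the cdc73 deletion, against 123 and 137 in WT. The change was 2.02 ± 0.142 (limma adjusted p = 7.77e-05) for the paf1 deletion and 2.49 ± 0.120 (adjusted p = 0.000121) for the cdc73 deletion. Every base of this run was higher in both deletions. Its first A had 584 and 637 in the paf1 deletion and 838 and 895 in the cdc73 deletion, against 248 and 261 in WT. At 5048, the first of 4 A at 5048 to 5051 in 25S, the signal was 768 and 580 in the paf1 deletion and 1118 and 1290 in the cdc73 deletion, against 127 and 186 in WT. The run of 4 A at 4552 to 4555 in 25S was dimmer. Its second A had 230 and 175 in the paf1 deletion and 261 and 268 in the cdc73 deletion, against 52.1 and 26.6 in WT, so the WT libraries differed while staying below all 4 deletion libraries. These 3 runs of A belong to the runs in which every position rose in both comparisons with WT.

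Runs of U in the 5' ETS made up most of the largest falls. At 527, the last of 5 U at 523 to 527, the signal was 36.6 and 42.8 in the paf1 deletion and 112 and 103 in the cdc73 deletion, against 1008 and 642 in WT. The change was -3.28 ± 0.204 (limma adjusted p = 5.78e-05) for the paf1 deletion and -2.49 ± 0.210 (adjusted p = 0.000369) for the cdc73 deletion. The 2 bases before it, 526 and 525, fell as well, with at most 38.7 in either deletion and at least 177 in WT. At 218, the first of 4 U at 218 to 221, the signal was 14.5 and 8.73 in the paf1 deletion and 33.9 and 35.3 in the cdc73 deletion, against 369 and 412 in WT. The fall was -2.88 ± 0.146 for the paf1 deletion (adjusted p = 4.28e-05) and -2.46 ± 0.115 for the cdc73 deletion (adjusted p = 0.000116). At 575, the last of 5 U at 571 to 575, the signal was 39.9 and 40.3 in the paf1 deletion and 131 and 145 in the cdc73 deletion, against 510 and 611 in WT. At 221, the last U of the run at 218, it was 10.4 and 14.6 in the paf1 deletion and 117 and 123 in the cdc73 deletion, against 160 and 226 in WT. The paf1 deletion was the lowest of the genotypes at 527, 218, 575 and 221, while the cdc73 deletion was the lowest at 526. In the 5' ETS as a whole, 18 of 29 positions in runs of U were lower in the paf1 deletion than in WT (62.1%), beside 49.5% of U outside runs there.

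Falls in the rRNA genes stood in runs of other bases too. At 5960, the third C of the 5 at 5958 to 5962 in 25S, the signal was 66.6 and 59.0 in the paf1 deletion and 70.7 and 74.0 in the cdc73 deletion, against 362 and 416 in WT. The change was -1.98 ± 0.139 (limma adjusted p = 7.77e-05) for the paf1 deletion, and every C of that run was lower in both deletions. At 3311, the first of 4 A at 3311 to 3314 in 25S, the signal was 331 and 470 in the paf1 deletion and 311 and 200 in the cdc73 deletion, against 1243 and 1757 in WT. At 4739, the last of 4 G at 4736 to 4739 in 25S, it was 349 and 376 in the paf1 deletion and 339 and 288 in the cdc73 deletion, against 1470 and 1239 in WT. The change there was -1.97 ± 0.145 (adjusted p = 0.00025) for the cdc73 deletion, and the climb along that run was flatter in both deletions than in WT. Conversely 5257, the second of 4 G at 5256 to 5259 in 25S, had 277 and 272 in the paf1 deletion and 391 and 553 in the cdc73 deletion, against 64.6 and 84.1 in WT.

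The deletions also differed from each other inside runs. At 1063, the second of 4 G at 1062 to 1065 in 18S, the signal was 1675 and 1634 in paf1 deletion cells, 151 and 146 in cdc73 deletion cells, and 254 and 208 in WT. The change of the paf1 deletion against the cdc73 deletion was 3.12 ± 0.115 (limma adjusted p = 1.78e-06), and against WT 2.61 ± 0.167 (adjusted p = 6.11e-05). The third G did not separate the deletions, with 361 and 400 (paf1) and 361 and 374 (cdc73). Both stood above WT, which had 227 and 221. In the paf1 deletion the second G thus stood far above the third, where the cdc73 deletion peaked at the fourth G, with 416 and 381.

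In the 4 G at 1898 to 1901 in 18S the peak sat on different bases by genotype. The second G, 1899, had 461 and 416 in paf1 deletion cells, 38.6 and 39.1 in cdc73 deletion cells, and 127 and 181 in WT. The third G, 1900, had 67.8 and 63.3 in paf1 deletion cells, 262 and 293 in cdc73 deletion cells, and 97.9 and 97.4 in WT. The change of the paf1 deletion against the cdc73 deletion was 2.49 ± 0.107 at 1899 (limma adjusted p = 2.58e-06) and -1.53 ± 0.108 at 1900 (adjusted p = 1.38e-05). The brightest base of the run was therefore the second in the paf1 deletion, the third in the cdc73 deletion, and the second or the fourth in the WT libraries.

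The run of 4 U at 1658 to 1661 in 18S behaved alike. Its first U had 428 and 419 in paf1 deletion cells, 68.9 and 58.8 in cdc73 deletion cells, and 425 and 478 in WT. Its second U had 102 and 104 in paf1 deletion cells, 250 and 269 in cdc73 deletion cells, and 97.9 and 92.9 in WT, and the fourth U had 70.6 and 67.7 in paf1 deletion cells, 183 and 190 in cdc73 deletion cells, and 79.1 and 75.2 in WT. Here the paf1 deletion kept the WT order and the cdc73 deletion did not. At the first U the change of the cdc73 deletion against WT was -2.20 ± 0.119 (limma adjusted p = 0.000143), while that of the paf1 deletion was -0.08 ± 0.144 with an adjusted p of 0.667.

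In the 5' ETS, runs of G were brighter in the paf1 deletion than in the cdc73 deletion. At 335 and 336, which are the third G and the fourth G of the 5 at 333 to 337, the paf1 deletion had 268 and 299, and 569 and 812. The cdc73 deletion had 27.1 and 35.2, and 150 and 180 at these positions, while WT had 83.3 and 111, and 304 and 230. At 437, the last of 4 G at 434 to 437, the signal was 957 and 1423 in paf1 deletion cells, 349 and 318 in cdc73 deletion cells, and 1175 and 991 in WT, so here the cdc73 deletion stood apart from both other genotypes. The reverse held at 2769, the third G of the 4 at 2767 to 2770 in ITS1, with 24.3 and 31.6 in paf1 deletion cells, 304 and 296 in cdc73 deletion cells, and 60.4 and 66.4 in WT. The change of the paf1 deletion against the cdc73 deletion there was -2.21 ± 0.107 (limma adjusted p = 3.25e-06). The single run of G in the 3' ETS, at 6684 to 6687, had a relative occupancy of 2.06 and 1.55 in paf1 deletion cells, 9.70 and 10.5 in cdc73 deletion cells, and 3.53 and 4.73 in WT. Its mean signal was only 23.3 and 18.01 in the paf1 deletion and 74.9 and 82.9 in the cdc73 deletion, against 68.7 and 73.0 in WT.

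**Figure D5:**
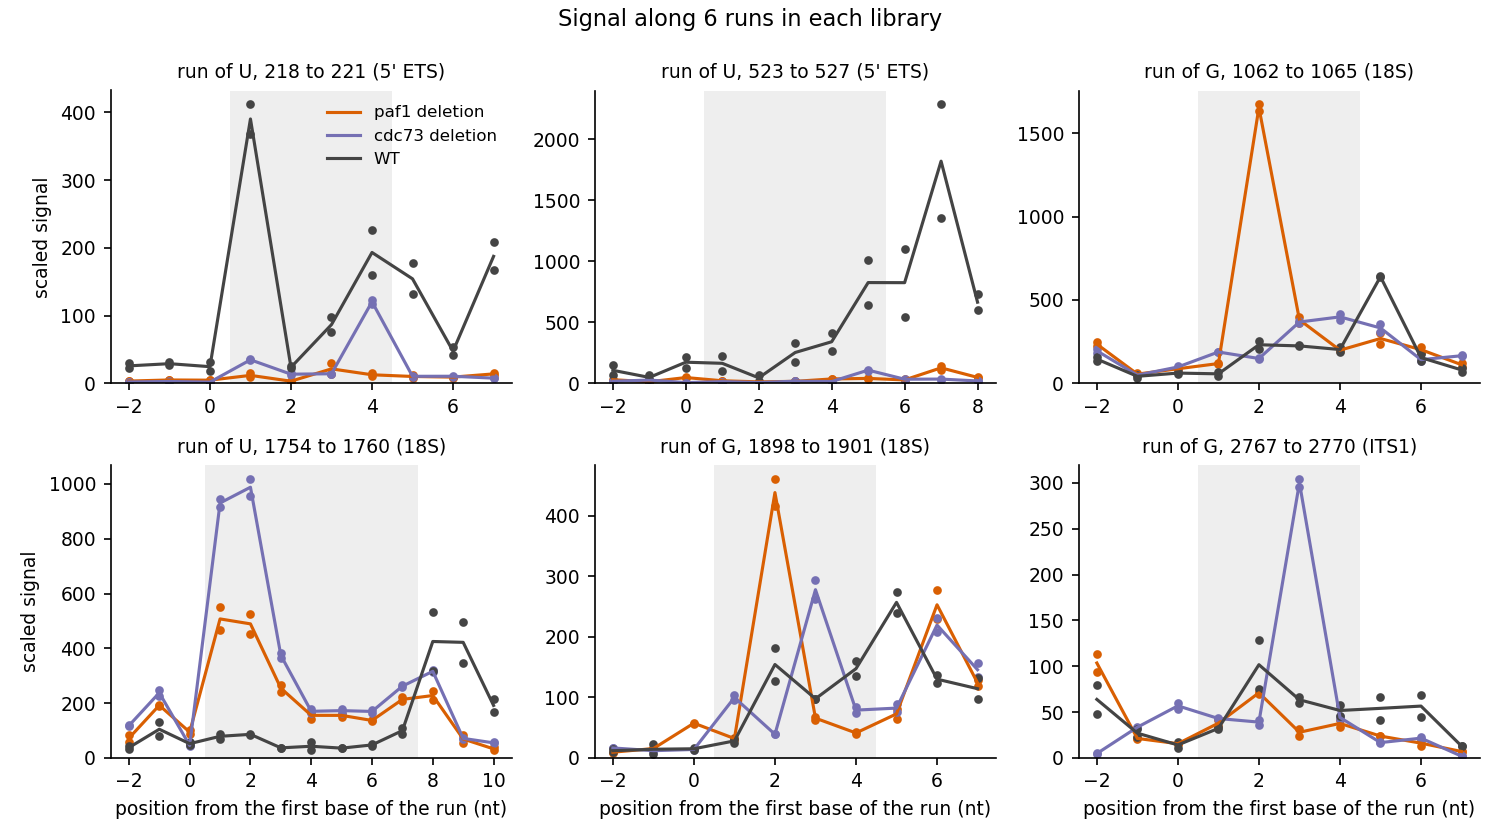
Scaled signal (y) at the bases of 6 runs and 3 neighbours on each side (x, nt, where 1 is the first base of the run and the run is shaded), 1 run each for the largest rise and the largest fall of the 3 comparisons, taking the next run where a run was already shown. Points are libraries and lines genotype means, and the y axes differ between panels. Position 1063 stands out in the paf1 deletion, the peak at 1898 to 1901 sits on different bases by genotype, the run at 1754 is higher in both deletions, the U runs at 218 and 523 are highest in WT, and position 2769 stands out in the cdc73 deletion.

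The remaining named positions were smaller changes of the paf1 deletion against the cdc73 deletion. At 562, the first of 5 A at 562 to 566 in the 5' ETS, the signal was 35.0 and 25.3 in paf1 deletion cells, 201 and 208 in cdc73 deletion cells, and 58.3 and 57.5 in WT. At 1577, the third G of the 5 at 1575 to 1579 in 18S, it was 509 and 545 in paf1 deletion cells, 1046 and 1074 in cdc73 deletion cells, and 381 and 403 in WT. At 2399, the last of 5 G at 2395 to 2399 in 18S, it was 44.3 and 46.9 in paf1 deletion cells, 166 and 148 in cdc73 deletion cells, and 83.3 and 57.5 in WT. In these 3 the cdc73 deletion was the highest. At 1321, the third A of the 5 at 1319 to 1323 in 18S, the order turned, with 1011 and 1272 in paf1 deletion cells, 474 and 386 in cdc73 deletion cells, and 733 and 947 in WT.

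The longest runs each had their own level, and length alone did not set it. The 11 A at 636 to 646 were brightest at their first base, with 183 and 182 in paf1 deletion cells, 152 and 167 in cdc73 deletion cells, and 285 and 310 in WT, and stayed lower to the end. The first A was lower in both deletions than in WT, with changes of -0.58 for the paf1 deletion (limma adjusted p = 0.00797) and -0.75 for the cdc73 deletion (adjusted p = 0.00235). The 6 A at 1452 to 1457 in 18S had a mean signal of 210 and 197 in paf1 deletion cells, 135 and 134 in cdc73 deletion cells, and 114 and 148 in WT, with the first base brightest in every library. The 6 A at 917 to 922 in 18S had 94.4 and 101 in paf1 deletion cells, 46.1 and 37.1 in cdc73 deletion cells, and 140 and 153 in WT. The change of the cdc73 deletion against WT at its first base, 917, was -2.04 ± 0.139 (adjusted p = 0.000207).

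Of the runs of 6 G, that at 5909 to 5914 in 25S was the brightest, with a relative occupancy of 2.50 and 2.60 in paf1 deletion cells, 1.86 and 1.56 in cdc73 deletion cells, and 4.29 and 4.3 in WT. The paf1 deletion had 174 and 182 at the first G and 404 and 442 at the fifth. The cdc73 deletion had 120 and 119 at the first and 365 and 306 at the fifth, and WT 315 and 327 at the first and 985 and 912 at the fifth. The climb was present in every genotype, at a higher level in WT. The 6 G at 1807 to 1812 in 18S stood at 1.64 and 1.69 in paf1 deletion cells, 1.33 and 1.28 in cdc73 deletion cells, and 1.25 and 1.02 in WT. There the third base, 1809, had 386 and 428 in paf1 deletion cells, 133 and 112 in cdc73 deletion cells, and 150 and 142 in WT, and the sixth base 151 and 118 in paf1 deletion cells, 247 and 230 in cdc73 deletion cells, and 279 and 159 in WT. The run peaked earlier in the paf1 deletion than in the other genotypes.

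The long runs of U were mostly dim. The 8 U at 3097 to 3104 in ITS2 had a mean signal of 17.3 and 18.8 in paf1 deletion cells, 17.0 and 18.2 in cdc73 deletion cells, and 15.4 and 16.6 in WT. The 7 U at 3182 to 3188 in ITS2 and the 7 U at 2528 to 2534 in ITS1 had between 3.16 and 12.5 in every library, a level that rests on few reads in WT. The 6 U at 665 to 670 in the 5' ETS had 7.38 and 6.69 in the paf1 deletion and 11.9 and 12.6 in the cdc73 deletion, against 84.0 and 91.5 in WT, and every base was lower in both deletions. The 6 U at 1362 to 1367 in 18S had 86.7 and 67.7 in paf1 deletion cells, 58.7 and 67.2 in cdc73 deletion cells, and 31.6 and 39.1 in WT. The 6 U across the end of 25S, at 6647 to 6652, had 0 at the first 3 bases in all libraries. At the fourth base, 6650, the signal was 515 and 416 in paf1 deletion cells, 363 and 430 in cdc73 deletion cells, and 716 and 766 in WT.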

How the data were processed

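NET-seq libraries of 2 paf1 deletion, 2 cdc73 deletion and 2 WT yeast samples were analysed. The submitters' processing notes list build R64, STAR 2.7.1a, cutadapt 3.4, bedtools 2.28.0 and SAMtools 1.6, among others. The use of molecular identifiers, the read end that gave a position and the placing of reads that match several repeats were not given in the sources used here. Deposited signal was scaled by the authors to a fixed sum per library, as the values show, and read totals follow from its smallest step. Within 0.1 read, 99.9% to 100.0% of values came out whole. No per-sample column was left unmapped (0).

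Runs, lists and named positions were chosen with earlier results of these data known. Named are runs of 6 or more bases (the 5 C for C) and, per comparison, the 8 largest rises and 8 largest falls among run positions. These had to pass adjusted p 0.05, with a mean no lower than the median tested position and no overlap between groups. Other runs were named after their values were seen. Positions above 0 in at least 2 of 4 libraries entered limma 3.58.1 under R 4.3.3 (eBayes with trend) on log2(signal + pseudocount), the pseudocount being 0.5 times the median of values above 0. The script was tested on simulated data. Relative occupancy, being a score over chosen positions, has no p. edgeR 4.0.16, run on the reads recovered from WT and the cdc73 deletion, called 4274 positions. Same-numbered libraries had deviations correlated at 0.0349 (WT and cdc73 deletion), 0.113 (WT and paf1 deletion) and -0.227 (the deletions), so the numbers do not pair them. Python 3.11.15, numpy 2.4.6, pandas 2.3.3 and matplotlib 3.10.9 were used. Alternatives were other pseudocounts, filters, scalings, blocks, left-out libraries, capped signal, longer runs and medians.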

Additional observations from a re-analysis of the deposited data

Results flagged for a closer look

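At 12 run positions in 10 runs, limma called the change against WT in opposite directions in the 2 deletions. The direct comparison of the paf1 deletion with the cdc73 deletion was called there as well. The same count over all tested positions was not made, so this number is no result about runs. Of these 12, the 6 that are named positions are given here. The paf1 deletion was the higher at 1063 (3.12 on the log2 scale), 1899 (2.49), 335 (2.07) and 336 (1.78), all in runs of G. At 1063 the paf1 deletion was 2.61 over WT and the cdc73 deletion -0.51, and at 1899 these values were 1.28 and -1.24. At 335 they were 1.20 and -0.90, and at 336 they were 1.22 and -0.57. The paf1 deletion was the lower at 2769 (-2.21), in a run of G in ITS1, and at 562 (-1.70), the first base of a run of A in the 5' ETS. At 2769 the paf1 deletion was -0.55 against WT and the cdc73 deletion 1.68, and at 562 these values were -0.44 and 1.28. No cause was tested.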

How the results depend on the processing

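Values are log2 differences of relative occupancy unless said otherwise. Relative occupancy by base moved with most choices of positions. With runs of 5 or more bases, the paf1 deletion minus the cdc73 deletion turned to 0.21 for A, -0.091 for C and -0.039 for G. Against WT, U turned to 0.18 (paf1 deletion) and 0.050 (cdc73 deletion). The cdc73 deletion against WT moved to 0.30 for A and 0.036 for G, and C moved to -1.83 (paf1 deletion) and -1.74 (cdc73 deletion). With medians of log2 values in place of means, the paf1 deletion minus the cdc73 deletion turned to -0.041 for C and -0.059 for G, and moved to -0.14 for A and 0.088 for U. Against WT, medians gave 0.19 (A), -0.45 (C), -0.052 (G) and -0.047 (U) for the paf1 deletion. The cdc73 deletion stood at 0.33 (A), -0.41 (C) and -0.13 (U). Spacers alone gave 0.91 (A), 1.01 (G) and -0.58 (U) for the paf1 deletion against WT, 2.11, 0.45 and -1.12 for the cdc73 deletion against WT, and -1.19, 0.56 and 0.54 between the deletions. Capping the signal gave -1.08 and -1.07 for C in the paf1 deletion and the cdc73 deletion against WT, and turned their difference to -0.010. Without positions near mature 3' ends, C was at -1.13 and -1.16, and U at -0.047 and -0.23, in the paf1 deletion and the cdc73 deletion against WT. Without the run of C at 5958, left out after its values were seen, C was at -0.28 and -0.47. The cause of these shifts was not tested. Fitting all 6 libraries together gave 109 higher run positions between the deletions in place of 171.

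With the replicate block, run positions called were 136 higher and 97 lower for the paf1 deletion against WT, 118 and 145 for the cdc73 deletion against WT, and 167 and 87 between the deletions, so it changed no count by over 1.5 times. The crossed pairing, added after seeing the data, gave 199 higher and 110 lower run positions between the deletions. edgeR, also added later, gave 116 higher and 149 lower for the cdc73 deletion against WT. Leaving out 1 library gave 98 to 166 higher and 68 to 129 lower for the paf1 deletion against WT, 88 to 162 and 97 to 198 for the cdc73 deletion against WT, and 121 to 191 and 67 to 106 between the deletions. A genotype left with 1 library was assumed to vary like the other. The 48 changes of named positions kept their direction in all 512 checks, each check being 1 change under 1 alternative. Because these positions were picked as large called changes in the same libraries, that outcome was largely fixed beforehand. The WT libraries' few reads limit what can be seen at dim runs.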
